A study of Mus musculus with 6 samples.

Results

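Tubule injury markers are genes whose expression is used as a sign of damage to kidney epithelial cells. The 9 genes described here are Havcr1, Krt20, Vcam1, Cdh6, Itgb6, Sox9, Dcdc2a, Lcn2 and Clu. They were chosen by symbol from the 31276 genes of the count matrices, and all 9 had UMIs, the molecule tags that count captured transcripts. The samples were obstructed kidneys of C57BL/6 mice, taken 7 days after unilateral ureteral obstruction. All 6 mice had that surgery, 3 were treated with the compound SH045 (SH045 group) and 3 with Vehicle (Vehicle group), and each library was 1 mouse. The series title ties the study to inhibition of the cation channel TRPC6. The age of the mice, the dose and the route are not given in the labels. Contralateral kidneys were not analysed here, so no level below can be set against an unobstructed kidney.

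Obstruction of a ureter stretches the tubules and starves them of flow. Epithelial cells then lose transporters and express adhesion molecules, keratins, secreted defence proteins and developmental regulators. Cells that do not regain their transporters are described as failed-repair cells. Of the 9 genes, Havcr1 encodes the phosphatidylserine receptor KIM-1, Vcam1 a leukocyte adhesion molecule, Cdh6 a cadherin of the developing nephron and Itgb6 the integrin subunit that pairs with the alpha-v chain and releases active TGF-beta. Krt20 encodes an intermediate filament protein best known from gut and urothelium, and Dcdc2a a doublecortin-domain protein that binds microtubules and localises to cilia. Sox9 is a transcription factor of renal progenitors and regenerating tubules. Lcn2 encodes the iron-siderophore carrier NGAL and Clu the secreted chaperone clusterin.

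The 6 libraries held 25978 barcodes and 21186872 to 32256602 UMIs each. Of the barcodes, 23578 passed the limits of 200 or more genes and no more than 50% mitochondrially encoded UMIs. Barcodes over the mitochondrial limit made up 10.3% to 16.5% of the SH045 and 3.56% to 5.29% of the Vehicle libraries. Pairs of libraries shared between 6 and 52 barcodes, at most 1.36% of the smaller library. Each kept barcode was placed in a class by markers that include none of the 9 genes: 7547 in the tubule, 10259 as macrophage, 721 as mixed because they carried markers of 2 lineages, and 760 in no class. A class name stands for its marker gate. Among the 10 genes that most set each named class apart, at least 2 were its own markers and 0 were markers of another class. The classes were gated on these markers, so this is no independent check. Leiden clusters, groups of like expression named by the same markers, gave the same name to 98.9% of proximal tubule cells. For principal cells this was 89.9% and for monocytes 35.1%. No cluster was named connecting tubule, neutrophil, or pericyte and smooth muscle. The 459 tubule cells that carried epithelial markers but fewer than 2 markers of any 1 segment are called tubule cells without a segment. Such cells can carry a single marker of a segment. Havcr1, Vcam1 and Cdh6 were themselves among the 10 genes that most set these cells apart.

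In GENCODE M21 (GRCm38, the mm10 assembly) the members are protein-coding genes on 6 chromosomes. Havcr1 lies at chr11:46735080-46779578 on the plus strand, Krt20 at chr11:99428403-99438150 on the minus strand and Sox9 at chr11:112782224-112787760 on the plus strand. Lcn2 lies at chr2:32384633-32388252 and Itgb6 at chr2:60598292-60722643, both on the minus strand. Vcam1 lies at chr3:116109949-116129688 and Cdh6 at chr15:13028701-13173675, both on the minus strand. Dcdc2a lies at chr13:25056004-25210706 and Clu at chr14:65968483-65981547, both on the plus strand. RefSeq promoters on build GRCm38.p6 were at hand for 6 of the 9 members. The pair below is shown because Krt20 dropped most steeply with the number of proximal tubule markers per cell and Dcdc2a was the member whose response to SH045 differed between tubule classes. Each sequence holds the 250 bases before the annotated start, on the strand of the gene, at chr11:99438154-99438403 for Krt20 and chr13:25055754-25056003 for Dcdc2a.
Krt20: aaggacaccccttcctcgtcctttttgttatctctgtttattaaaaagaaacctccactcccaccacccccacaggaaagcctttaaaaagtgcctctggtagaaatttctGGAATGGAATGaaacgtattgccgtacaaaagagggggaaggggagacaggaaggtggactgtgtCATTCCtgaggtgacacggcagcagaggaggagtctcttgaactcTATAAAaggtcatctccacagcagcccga
Dcdc2a: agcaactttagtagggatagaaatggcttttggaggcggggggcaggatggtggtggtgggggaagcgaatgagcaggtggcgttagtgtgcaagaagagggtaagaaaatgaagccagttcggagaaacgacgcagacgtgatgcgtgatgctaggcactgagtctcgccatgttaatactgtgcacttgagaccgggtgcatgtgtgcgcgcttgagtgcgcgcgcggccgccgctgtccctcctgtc
Capitals mark matches on either strand to the TATA box (TATAAA), AP-1 (TGANTCA), TEAD (GGAATG) or CCAAT motifs, and the only overlap was between a pair of TEAD matches. Krt20 held the TATA box at bases -29 to -24 and 3 TEAD motifs at -139 to -134, -134 to -129 and -74 to -69. Among 32851 promoter windows of the same length, 12.4% held a TATA box, 12.6% at least 1 TEAD motif and 0.0913% at least 3. The Dcdc2a window held none of the 4 motifs, nor did the windows at hand of Havcr1, Cdh6, Itgb6 and Lcn2. A match is a string of letters in the window and no measurement of binding.

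By where their transcripts were found, Havcr1, Krt20, Vcam1 and Cdh6 formed a proximal group and Clu and Lcn2 a distal group. Itgb6 and Dcdc2a were spread over both parts of the nephron. Proximal tubule cells held 68.0% of all Havcr1 UMIs, 49.8% of Krt20, 46.3% of Vcam1 and 42.3% of Cdh6. By contrast they held 1.30% of Clu and 2.94% of Lcn2 UMIs. Principal cells, the water- and sodium-reabsorbing cells of the collecting duct, held 33.6% of Clu and 28.1% of Lcn2. Of Itgb6 UMIs, 35.5% lay in proximal tubule and 22.6% in intercalated cells, the acid-base cells of the collecting duct. UMI shares also follow class size, and these were the largest tubule classes. The 7547 tubule cells included 2715 proximal tubule, 1798 intercalated, 1008 principal, 734 thick ascending limb and 443 distal convoluted tubule cells. Dcdc2a was spread over proximal tubule (18.8%), principal (17.7%), distal convoluted tubule (17.3%) and thick ascending limb cells (14.7%). Mixed barcodes, 721 of 23578, held 23.7% of Krt20, 22.4% of Vcam1 and 14.1% of Havcr1 UMIs, and they enter no class below.

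**Figure D1:**
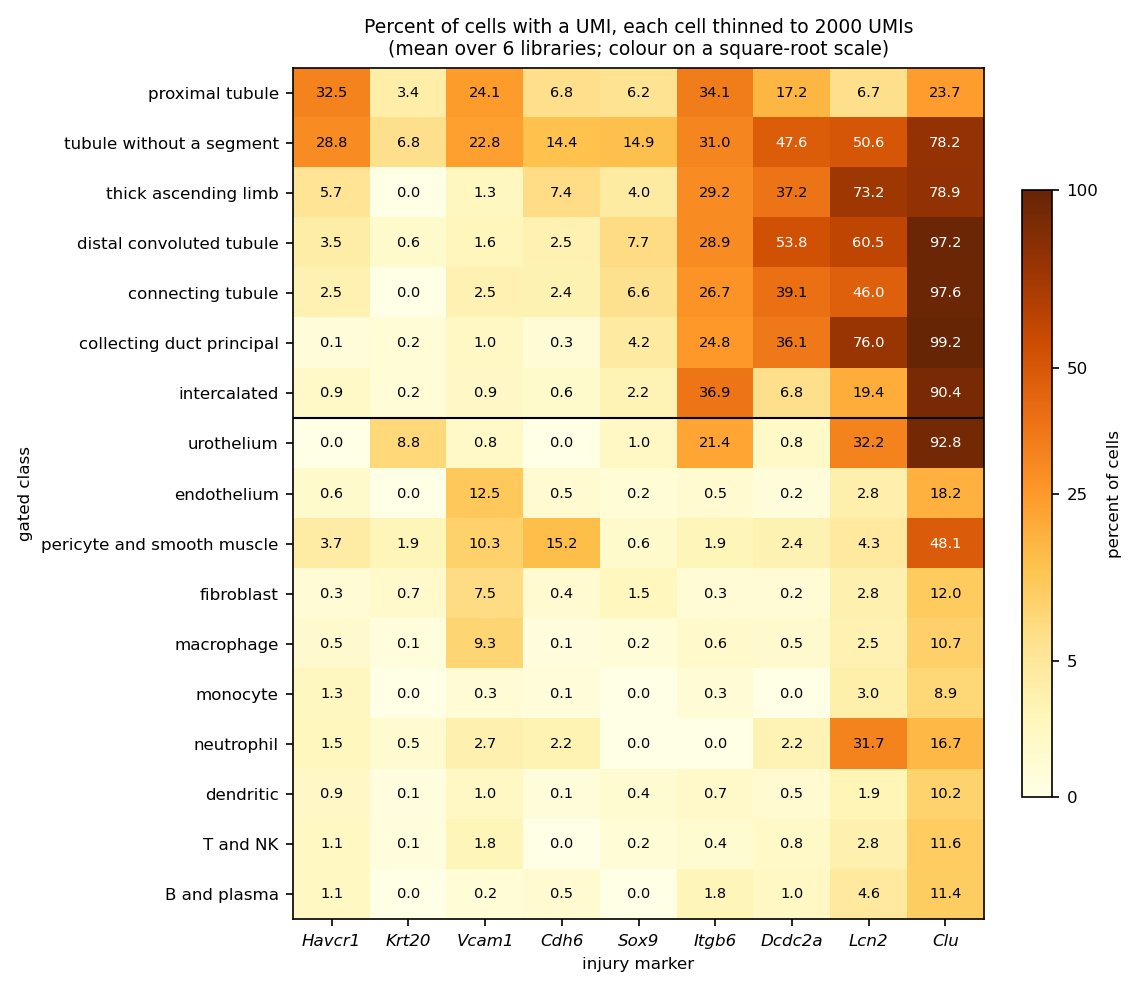
Percent of cells with at least 1 UMI of each injury marker (columns) in each gated class (rows), after every cell was thinned to 2000 UMIs; values are means over 6 libraries and the line separates tubule from other classes. Havcr1 and Vcam1 were detected in 32.5% and 24.1% of proximal tubule cells and in 28.8% and 22.8% of tubule cells without a segment, while Clu was detected in 99.2% of principal cells.

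Detection was compared after each cell had been thinned to 2000 UMIs, so that deep and shallow cells count alike, and is given as the mean over 6 libraries with its SD. Havcr1 was detected in 32.5 ± 10.7% of proximal tubule cells and 28.8 ± 8.56% of tubule cells without a segment, against 0.529 ± 0.306% of macrophages and 0.128 ± 0.314% of principal cells. T and NK cells, which can express it when activated, were at 1.06 ± 0.713%. The median depth before thinning was 6184, 4750, 3601, 6888.5 and 3405 UMIs in these classes. Vcam1 was detected in 24.1 ± 8.26% of proximal tubule cells and 22.8 ± 5.43% of cells without a segment. Krt20 was rarer, at 3.35 ± 1.91% and 6.85 ± 3.45%. In the other tubule classes its share was at most 0.566%. Before thinning, the 734 thick ascending limb cells held 3 of the 1982 Krt20 UMIs and the 384 connecting tubule cells 5.

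Sums of UMIs per library and class were tested with edgeR, each tubule class against the mean of the others, with the library as a block. Levels below are CPM, the UMIs of a gene scaled to the same total of UMIs in each library and class, folds are log2 values, and p-values are adjusted by Benjamini-Hochberg over the 10493 genes tested. In proximal tubule cells 5 members were higher and 3 lower, where 31.0% of all genes were higher and 27.5% lower. Havcr1 stood 4.36 ± 0.24 (SE) above the other classes on the log2 scale (edgeR adjusted p = 5.1e-17), Krt20 4.04 ± 0.37 (2.4e-11), Vcam1 3.87 ± 0.25 (4.0e-15) and Cdh6 1.74 ± 0.21 (6.2e-09). Itgb6 was higher by only 0.43 ± 0.11 (edgeR adjusted p = 0.0017). The 3 lower members were Clu at -5.31 ± 0.22, Lcn2 at -3.93 ± 0.25 and Dcdc2a at -1.17 ± 0.11 (edgeR adjusted p = 2.5e-20, 2.7e-15 and 1.2e-11). Sox9 did not pass.

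As a class, tubule cells without a segment carried markers of both groups. There 7 members were higher and 0 lower, against 15.5% and 11% of all genes. Krt20 was 5.20 ± 0.43 higher, Havcr1 4.35 ± 0.27, Vcam1 4.34 ± 0.27 and Cdh6 3.46 ± 0.24 on the log2 scale, and Sox9, Lcn2 and Dcdc2a were higher by 1.50 ± 0.21, 0.92 ± 0.17 and 0.83 ± 0.11. Sox9 reached 95.9 ± 20.8 CPM (SD, n = 6) in these cells, with 73.0, 126 and 113 CPM in the SH045 and 86.5, 77.0 and 101 in the Vehicle libraries. Every one of these values lies above every Sox9 value in proximal tubule, where the range was 21.6 to 51.5 CPM. Cdh6 in the cells without a segment was at 336, 157 and 85.3 CPM with SH045 and 100.1, 127 and 75.4 CPM with Vehicle, so that 1 SH045 library stood far above the rest. At least 2 members were detected in 86.8 ± 4.81% of the cells and at least 3 in 63.9 ± 6.75%. Segment markers in these cells summed to 241 to 838 CPM for the distal convoluted tubule and 448 to 741 CPM for the thick ascending limb. Connecting tubule markers summed to 199 to 626 CPM and proximal tubule markers to 98.3 to 314 CPM. The part of such a mix in the levels of the members was not tested.

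Along the distal nephron Lcn2 and Clu each had a pair of leading classes that could not be put in order. Lcn2 was 1.67 ± 0.16 higher in the thick ascending limb, the sodium-chloride-reabsorbing segment, 1.43 ± 0.16 in principal cells and 1.05 ± 0.17 in the distal convoluted tubule (log2, edgeR adjusted p = 7.1e-10, 1.5e-08 and 1.8e-05). Its CPM was 3327, 2280 and 4983 with SH045 and 2905, 4974 and 4248 with Vehicle in the thick ascending limb. The range there overlaps that of principal cells, 3102 to 5245 CPM, so that the order of these neighbours is not set. Clu was highest in principal and connecting tubule cells, at 23127 ± 2450 and 22876 ± 3738 CPM (SD, n = 6), which do not differ beyond their spread. Connecting tubule cells were 1.79 ± 0.13 and principal cells 1.67 ± 0.13 above the other classes in log2 Clu level. Proximal tubule cells were at the bottom of the order with 301 ± 108 CPM of Clu, the range being 166 to 451.

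Dcdc2a had its highest level in the distal convoluted tubule, where thiazide-sensitive salt transport takes place. It was at 471, 405 and 747 CPM there with SH045 and 414, 403 and 445 with Vehicle, and 1.27 ± 0.10 above the other classes (log2, edgeR adjusted p = 8.4e-13). Intercalated cells had the lowest tubule level, 62.6 ± 14.1 CPM (SD, n = 6), and stood at -2.16 ± 0.13. Itgb6 varied least among the classes. Its class means ran from 157 ± 38.3 CPM in principal to 267 ± 55.7 CPM in intercalated cells, and its edgeR fold against the other classes stayed between -0.66 and 0.43. By class, 4 members were higher and 2 lower in the thick ascending limb, 4 and 0 in the distal convoluted tubule, 2 and 0 in the connecting tubule, 2 and 5 in principal and 1 and 7 in intercalated cells. The matching shares of all genes were 16.1% and 11.8%, 11.3% and 9.63%, 9.37% and 6.30%, 16.1% and 16.4%, and 22.2% and 22.7%. Some of the lower calls were unstable. Clu in intercalated cells was lost without SH045 replicate 1, 2 or 3 or Vehicle replicate 2 or 3. Krt20 in principal cells was lost without SH045 replicate 1 or 3 or Vehicle replicate 2 or 3. Sox9 in the thick ascending limb was lost without SH045 replicate 1 or 2 or Vehicle replicate 2. Other calls were gained, among them Sox9 as higher in the proximal tubule with no filter.

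Outside the tubule every member tested was lower than in tubule cells in each of 7 types, the macrophage, monocyte, dendritic, T and NK, B and plasma, endothelial and fibroblast classes. Krt20 was not tested there because its counts were too low. Of the 10935 genes tested, 44.2% were lower in macrophages, 39.0% in monocytes, 42.6% in dendritic, 42.3% in T and NK and 34.8% in B and plasma cells, 28.6% in endothelium and 29.6% in fibroblasts, and between 26.6% and 33.3% were higher. No member was higher in any of these types. The smallest gap was that of Sox9 in fibroblasts, -1.21 on the log2 scale. Next came Vcam1, which vascular and myeloid cells are known to express: -1.41 in fibroblasts, -1.45 in endothelium and -1.45 in macrophages on the log2 scale, against -7.68 in monocytes. Vcam1 was detected in 12.5 ± 2.77% of endothelial and 9.32% of macrophage cells but in 0.283% of monocytes. Among these 7 types Clu was detected in 8.94% of monocytes to 18.2% of endothelial cells, with a UMI in 11.6% of T and NK cells. These shares are not read as expression.

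Lcn2 is also a granule protein of neutrophils, and Krt20 a marker of umbrella cells of the urothelium, so both were checked in those small classes, which were too thin for a test. The 105 neutrophils had Lcn2 at 2881, 2698 and 444 CPM in the SH045 and 861, 177 and 131 CPM in the Vehicle libraries, and 31.7 ± 10.9% of them had a UMI. They gave 0.68% of all Lcn2 UMIs. The 78 urothelial cells had Krt20 at 117, 121 and 149.9 CPM with SH045 and 23.7, 28.6 and 31.3 CPM with Vehicle. Those 6 values rest on libraries of 5 to 21 cells, and 7 of the 78 thinned cells had a Krt20 UMI. Urothelium gave 3.83% of all Krt20 UMIs. Pericytes and smooth muscle, 79 cells, held Cdh6 in 15.2 ± 13.5%. Clu was detected in 92.8 ± 8.04% of urothelial cells and in 48.1 ± 19.1% of pericytes and smooth muscle. Urothelial cells also held Lcn2 in 32.2 ± 23.7% and Itgb6 in 21.4 ± 10.8%.

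Within the proximal tubule gate, 8 of the 9 markers were detected in a larger share of the cells with few proximal tubule markers than of those with many, in every library. Cells were split by how many of 12 proximal tubule markers (transporters, endocytic receptors and metabolic enzymes such as Lrp2, Slc34a1 and Miox) had a UMI after thinning: 343 cells had 0 or 1, 794 had 2 or 3, 913 had 4 or 5 and 665 had 6 or more. Havcr1 was detected in 61.6 ± 6.93% of cells in the first set, then in 43.4 ± 10.3%, 22.4 ± 9.51% and 11.04 ± 7.62% (SD, n = 6). Vcam1 went through 48.1 ± 8.35%, 31.1 ± 8.74%, 16.9 ± 7.002% and 7.34 ± 4.44%. Krt20 had the steepest profile, 12.9 ± 2.22% in the first set and 0.0579 ± 0.142% in the last. Itgb6 was nearly level, from 35.8 ± 9.29% to 30.1 ± 10.2%. In the set with the fewest markers Lcn2 reached 17.4 ± 5.17% and Clu 42.9 ± 10.4% of cells, against 3.13% and 14.6% in the set with the most. Each of the 9 genes except Itgb6 was more frequent in the first than in the last set in 6 of 6 libraries, and Itgb6 in 4 of 6. The smallest library had 22 cells in the last set.

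**Figure D2:**
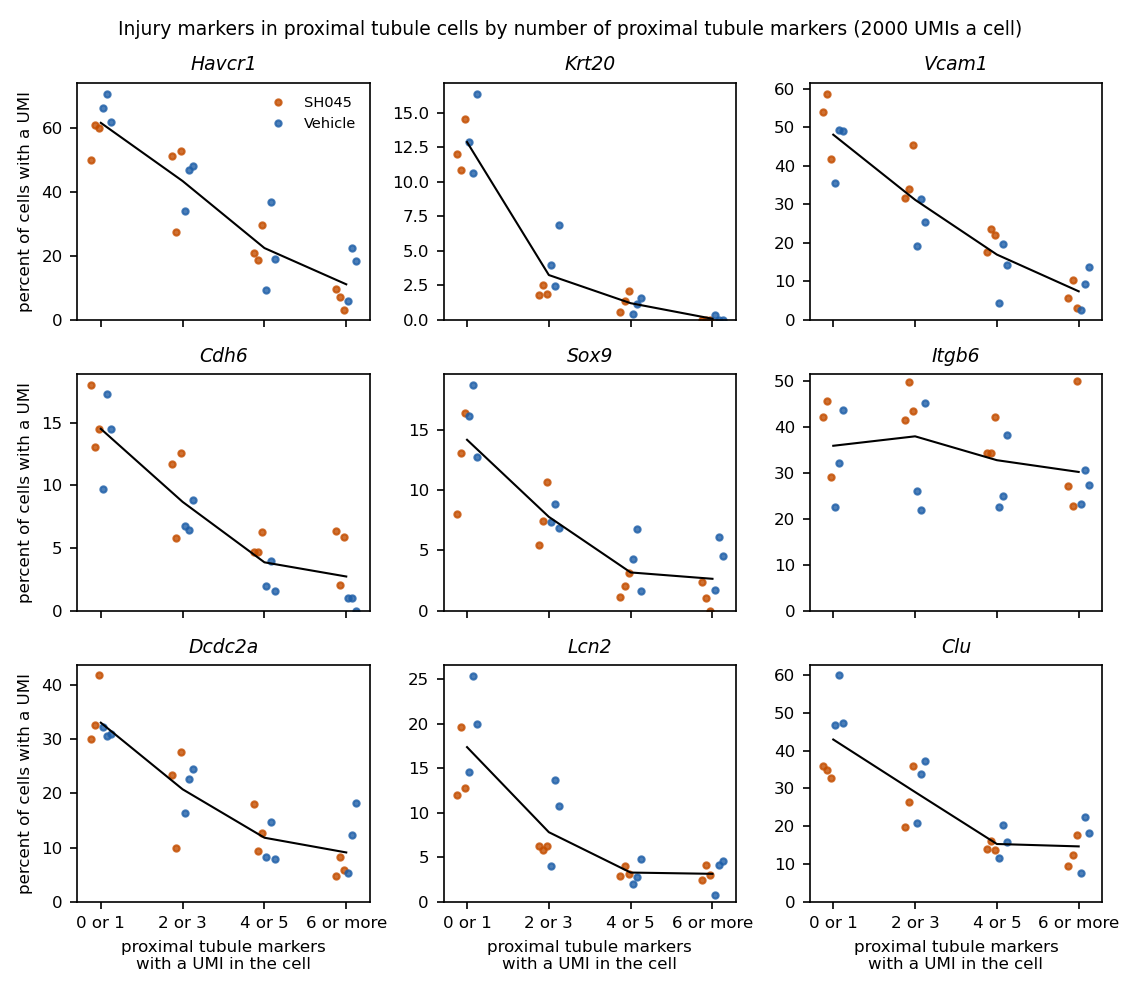
Percent of proximal tubule cells with a UMI of each injury marker (y axis) against the number of proximal tubule markers detected in the same cell (x axis), cells thinned to 2000 UMIs; points are the 6 libraries coloured by treatment and the line is their mean. Havcr1 goes from 61.6% to 11.04% and Krt20 from 12.9% to 0.0579%, while Itgb6 stays between 30.1% and 37.9%.

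Pairs of markers were counted in the same thinned cells and set against the number expected if the markers were independent within each library. Cells are not replicates, so these ratios are a description. In the proximal tubule all 36 pairs were found together more often than expected. Havcr1 and Krt20 shared 70 cells where 25.9 were expected, a ratio of 2.71 (1.81 to 5.20 over the libraries), so that 70 of 79 Krt20-positive cells also had Havcr1. Krt20 and Vcam1 had a ratio of 2.96 and Havcr1 and Vcam1 of 1.77, with 344 cells against 194. Pairs that include Itgb6 had ratios from 1.06 with Lcn2 to 1.32 with Cdh6.

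Among tubule cells without a segment 19 of the 34 pairs with at least 5 expected cells were above expectation and 15 below. Krt20 and Vcam1 shared 25 cells against 6.95 expected (ratio 3.595), Havcr1 and Krt20 had a ratio of 2.78, Vcam1 and Cdh6 2.00 and Havcr1 and Vcam1 1.99, each above 1 in 6 of 6 libraries. Lcn2 and Clu were found together in 222 cells against 191 (1.16, above 1 in 6 of 6). Among the pairs below expectation the ratios were 0.69 for Havcr1 with Lcn2, 0.66 for Lcn2 with Vcam1, 0.59 for Lcn2 with Cdh6 and 0.80 for Havcr1 with Clu. The last 3 of these pairs were above 1 in 0 of 6 libraries, and the first in 1 of 6. The part of a mix of segments within the class in these ratios was not tested. In the thick ascending limb 12 of 20 such pairs were above expectation and 8 below. There all 44 Havcr1-positive cells also had Lcn2, where 33.4 were expected (ratio 1.32), and Havcr1 with Dcdc2a had a ratio of 1.72.

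**Figure D3:**
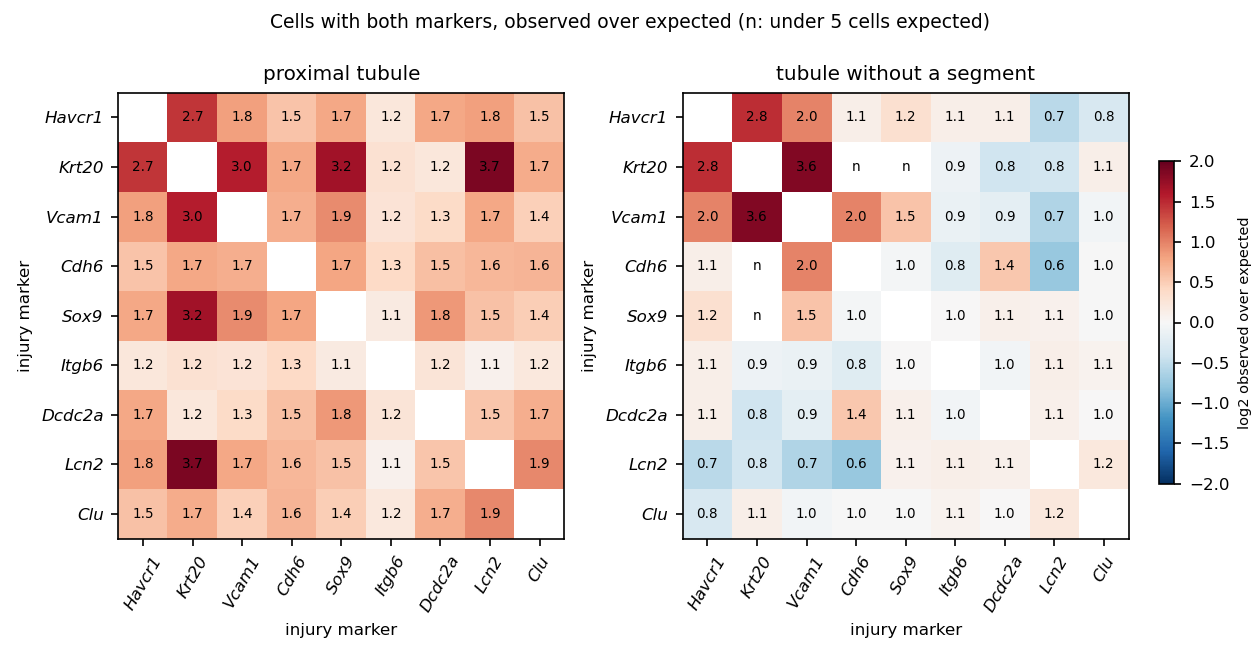
Cells with UMIs of both markers, observed over expected within libraries, for each pair in proximal tubule (left) and in tubule cells without a segment (right); colour is the log2 ratio and n marks pairs with under 5 expected cells. All 36 proximal tubule pairs lie above 1, while Lcn2 with Havcr1, Vcam1 and Cdh6 lies at 0.69, 0.66 and 0.59 in the cells without a segment.

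SH045 was compared with Vehicle in sums over all kept barcodes, over all tubule cells and within each of 11 classes with at least 30 cells in every library. Over all kept barcodes none of the 9 members passed the edgeR test, where 4.31% of genes did. Over all tubule cells none of 9 passed either, in a fit that called 0% of 13857 genes, with 2762 at an unadjusted p under 0.05 and 304 called by DESeq2. The median log2 fold of the members was -0.16, against -0.02 for all genes. Krt20 came nearest, with 12.9, 8.99 and 20.4 CPM in the SH045 and 22.4, 24.99 and 46.0 CPM in the Vehicle libraries. These groups do not overlap, as for 26.6% of all genes, and the log2 fold was -1.26 ± 0.33 (SE, edgeR adjusted p = 0.158, DESeq2 adjusted p = 0.016). Havcr1 was at 220, 140.3 and 335 CPM with SH045 and 296, 305 and 381 with Vehicle, and its groups overlap. In a sum over tubule cells, fewer cells of a class and less RNA per cell cannot be told apart. Proximal tubule cells made up 25.1% to 37.0% of the tubule cells in the SH045 libraries and 27.4% to 64.2% in the Vehicle libraries.

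Neither class rich in Havcr1 gave a call. In the proximal tubule 0 of 9 members passed, where 0.00875% of genes did, and the members' folds ran from -1.31 for Krt20 to 0.57 for Cdh6 on the log2 scale. Havcr1 there was at 508, 355 and 773 CPM with SH045 and 392, 730 and 919 CPM with Vehicle (log2 fold -0.41 ± 0.32, edgeR adjusted p = 0.597). In tubule cells without a segment 0 of 9 passed, where 0.0506% of genes did, and Havcr1 was at 479, 688 and 768 against 1144, 353 and 1027 CPM. Vcam1 in the same cells was at 336, 865 and 850 against 649, 433 and 836 CPM. Both pairs of groups overlap widely. In counts simulated with the means and spread of these libraries, 93% of 4-fold and 39% of 2-fold changes were recovered in the cells without a segment and 97% and 51% in the proximal tubule. Each simulation changed 200 genes drawn at random, far more than were called in the data. The rates may therefore be too high for these fits, and they are not rates for the members.

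Principal cells of the collecting duct had more members called for SH045 than any other tubule class. There 3 of the 6 members tested fell and none rose, where 5.19% of 9695 genes were called, 2.61% lower and 2.58% higher. Dcdc2a was at 233, 171 and 194 CPM in the SH045 and 313, 323 and 418 CPM in the Vehicle libraries. All SH045 values lie below all Vehicle values, as for 25.7% of all genes in this class, and the log2 fold was -0.85 ± 0.16 (SE, edgeR adjusted p = 0.00142). Itgb6 was at 143, 124 and 105 CPM with SH045 and 178, 201 and 189 CPM with Vehicle, a fold of -0.64 ± 0.15 on the log2 scale (edgeR adjusted p = 0.0147). Lcn2 was at 3427, 3335 and 3102 CPM with SH045 and 4197, 5245 and 4126 CPM with Vehicle, and its log2 fold of -0.49 ± 0.14 had an edgeR adjusted p of 0.0392. The groups do not overlap for Itgb6 and Lcn2 either. Dcdc2a was called in 17 of 17 alternative fits (adjusted p up to 0.0232), Itgb6 in 15 of 17 and Lcn2 in 5 of 17. Itgb6 was lost without SH045 replicate 3 or Vehicle replicate 2, with adjusted p up to 0.0978. Lcn2 was lost without any 1 of the libraries except Vehicle replicate 1, and with no filter, classes from Leiden clusters, a mitochondrial limit of 20%, a common UMI minimum, mixed barcodes kept or the length trend removed. Its adjusted p then reached 0.288, and its fold -0.28 with the length trend removed and with Leiden classes.

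**Figure D4:**
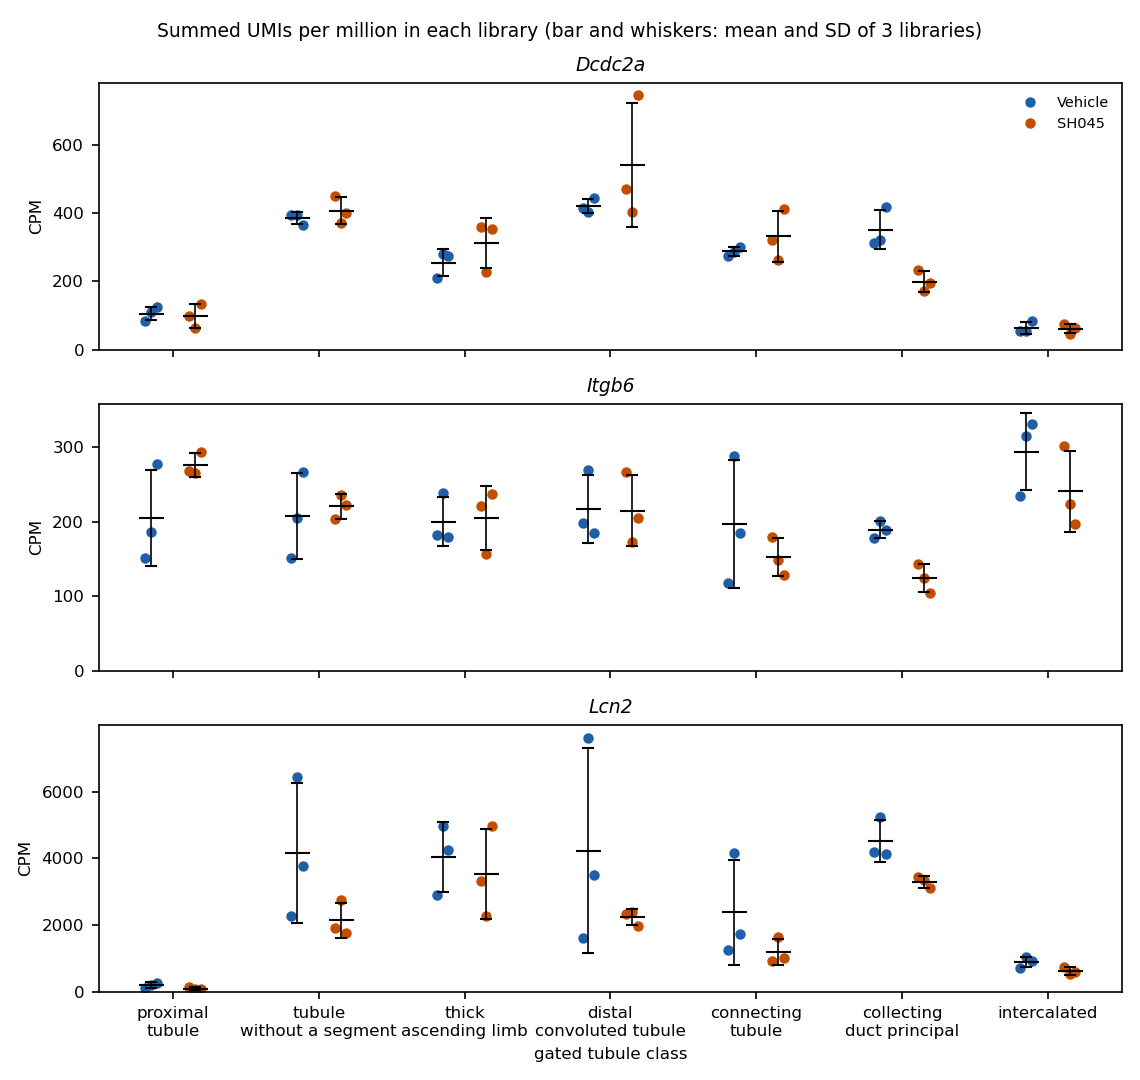
Level of Dcdc2a, Itgb6 and Lcn2 in CPM (y axes, from 0) in each gated tubule class, with 3 SH045 and 3 Vehicle libraries as points and their mean and SD as bars. In principal cells the SH045 libraries have 171 to 233 CPM of Dcdc2a, all below the Vehicle libraries at 313 to 418, while in the distal convoluted tubule the SH045 values of 405 to 747 CPM overlap with 403 to 445 for Vehicle.

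Dcdc2a was called in no other tubule class, where its log2 fold lay between -0.20 in the proximal and 0.26 in the distal convoluted tubule, and the difference between classes was tested itself. The SH045 effect in principal cells differed from the mean effect in the other 6 tubule classes by -0.85 ± 0.14 on the log2 scale (edgeR with the library as a block, adjusted p = 0.00275 over 11259 genes). In all, 4 genes, 0.0355% of those tested, differed in this way in principal cells. That test was added after the fold changes by class had been seen. Its adjusted p rose to 0.0912 without SH045 replicate 3 and to 0.0727 without Vehicle replicate 3, with contrasts of -0.72 and -0.77. No other member passed this test in any tubule class (smallest edgeR adjusted p = 0.227, Itgb6 in the proximal tubule), where 0.0799% of genes did in the proximal tubule and 0% in the other 5 classes.

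Detection in thinned cells gave the same order of groups. Dcdc2a was detected in 27.1 ± 5.03% of principal cells with SH045 and 45.03 ± 4.67% with Vehicle (SD, n = 3 each, two-sided exact permutation p = 0.1, adjusted 1.0 over 144 comparisons, where groups of 3 can give no smaller p than 0.1). At least 2 of the members were detected in 80.8 ± 3.48% of SH045 and 94.0 ± 4.59% of Vehicle principal cells, with the same p. Of the 7 markers that define the class, the summed level was 10410, 14019 and 9440 CPM in the SH045 and 10079, 6191 and 6528 CPM in the Vehicle libraries. Macrophage markers summed to 70.7 to 99.7 CPM in the SH045 and 102 to 182 CPM in the Vehicle principal cells, with all 6 detected, and thick ascending limb markers to 59.7 to 90.1 against 104 to 172 CPM, with all 5 detected. Principal cells were 5.91 ± 1.84% of kept barcodes with SH045 and 2.81 ± 0.554% with Vehicle (exact permutation p = 0.1, adjusted 0.314). Urothelial markers summed to 144 CPM in SH045 replicate 3 and to 6.92 to 36.5 CPM in the other 5. Connecting tubule markers summed to 1225, 2743 and 2266 CPM in the SH045 and 1275, 1591 and 1089 CPM in the Vehicle principal cells. The part of these differences in the fall of Dcdc2a was not tested. Median depth of the class was 6340 to 7824.5 UMIs with SH045 and 5909 to 7812.5 with Vehicle.

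Long transcripts tended to be higher in SH045 tubule cells, with a Spearman correlation of 0.469 between log2 fold and transcript length across genes, which are not independent replicates. The longest annotated transcripts of Dcdc2a and Itgb6 have 6634 and 4806 bases and that of Lcn2 1374. With the trend on length taken out, Dcdc2a and Itgb6 kept their call in principal cells, at log2 folds of -1.13 and -0.80, and Lcn2 did not (edgeR adjusted p = 0.279).

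**Figure D5:**
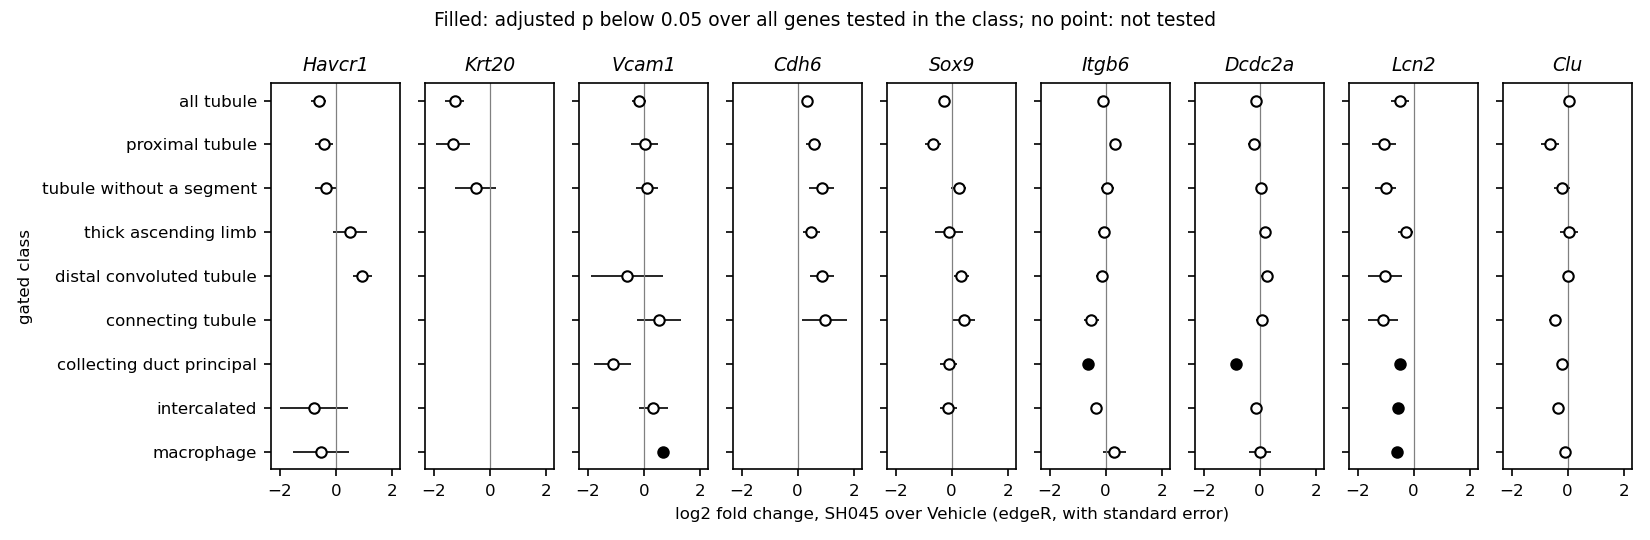
Log2 fold change of each injury marker with SH045 (x axis, edgeR estimate with its standard error) in sums over all tubule cells, each tubule class and macrophages (rows); filled points have an adjusted p below 0.05 over all genes of the class. The filled points are Dcdc2a, Itgb6 and Lcn2 in principal cells, Lcn2 in intercalated cells, and Vcam1 and Lcn2 in macrophages.

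Among the remaining classes Lcn2 fell in intercalated cells, where 2.04% of genes were called. It was at 745, 533 and 584 CPM with SH045 and 725, 1030 and 919 CPM with Vehicle, a log2 fold of -0.57 ± 0.16 (edgeR adjusted p = 0.0447). The groups overlap, and the call held in 9 of 17 alternatives. It was lost without SH045 replicate 1, 2 or 3 or Vehicle replicate 2, and with a mitochondrial limit of 20%, a common UMI minimum or the length trend removed, with adjusted p up to 0.327. The fold was -0.87 with 1 more marker in the gate and -1.60 with classes from Leiden clusters. In macrophages, where 13.5% of genes were called, Vcam1 rose from 44.4, 37.9 and 49.6 CPM with Vehicle to 86.8, 55.9 and 98.4 CPM with SH045 (log2 fold 0.69 ± 0.17, edgeR adjusted p = 0.0247). These groups do not overlap, as for 38.8% of all genes in macrophages, and the call held in 9 of 17 alternatives. It was lost without SH045 replicate 1, SH045 replicate 3, Vehicle replicate 1 or Vehicle replicate 2, and with the top 5% of doublet scores left out, classes from Leiden clusters, a common UMI minimum or the length trend removed, with adjusted p up to 0.101. Lcn2 in macrophages fell by 0.60 ± 0.18 on the log2 scale (edgeR adjusted p = 0.0425) between levels of 10.9 to 16.5 and 14.7 to 21.2 CPM, within the 6.98 to 36.6 CPM seen in T and NK cells, and the call held in 7 of 17 alternatives. It was lost without any 1 of the libraries except SH045 replicate 2, and in DESeq2, with 1 more marker in the gate, a common UMI minimum, mixed barcodes kept or the length trend removed, with adjusted p up to 0.353. Its fold was -0.39 with the length trend removed and -0.99 with Leiden classes. In all, 6 of 63 member-by-class tests were called. The share of all genes called in these classes ran from 0% in the connecting tubule to 13.5% in macrophages. The pooled count therefore has no single share of genes to be set against.

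The connecting tubule, thick ascending limb and distal convoluted tubule had no member called, where 0%, 0.115% and 0.206% of genes were. Nor was any of the few members tested in T and NK (0.466% of genes called), dendritic (0.547%) and monocyte (0.0774%) cells, or, in classes with at least 20 cells in every library, in B and plasma cells (0.518%), endothelium (2.16%) and fibroblasts (0.0924%). Havcr1 in connecting tubule cells was at 4.78, 5.05 and 4.29 CPM with SH045 and 47.4, 22.8 and 52.9 CPM with Vehicle. It was under the filter on low counts and has no test there.

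Other genes of tubule injury and failed repair were counted in the same fits, from a list of 32. In principal cells 5 of the 28 tested fell and none rose, where 2.61% of all genes were lower and 2.58% higher, and the median log2 fold was -0.40 against 0.00 for all genes. They were Tnfrsf12a, the receptor of TWEAK (-0.95 ± 0.17, edgeR adjusted p = 0.00106), Tpm1, an actin-binding tropomyosin (-0.79 ± 0.15, 0.00238), the cell cycle inhibitor Cdkn1a (-0.75 ± 0.17, 0.0107), the kinase anchor Akap12 (-1.87 ± 0.40, 0.0134) and the growth factor Pdgfb (-1.33 ± 0.32, 0.0216). Tnfrsf12a and Tpm1 were called in 17 of 17 alternatives, Cdkn1a in 15, Akap12 in 13 and Pdgfb in 11. Cdkn1a was lost without SH045 replicate 2 or Vehicle replicate 3, Akap12 without Vehicle replicate 2 or 3, and Pdgfb without SH045 replicate 1, 2 or 3 or Vehicle replicate 3, where its fold was -0.67. Akap12 was also lost with 1 more marker in the gate, Pdgfb with a common UMI minimum, and both with classes from Leiden clusters. Pdgfb is named because the count is small and was chosen after its value was seen. Kl, the co-receptor of FGF23, was the 1 of 12 nephron function genes that rose there, from 118, 173 and 134 CPM with Vehicle to 271, 286 and 287 CPM with SH045 (0.95 ± 0.16, edgeR adjusted p = 6.5e-04), a call that held in 17 of 17 alternatives. Kl was also among the 10 genes that most set connecting tubule cells apart. Connecting tubule markers summed to 1225, 2743 and 2266 CPM in SH045 and 1275, 1591 and 1089 CPM in Vehicle principal cells. Their part in the rise of Kl was not tested. In intercalated cells Spp1, which encodes osteopontin, rose by 0.89 ± 0.17 and the small heat-shock protein gene Cryab fell by 0.61 ± 0.15 on the log2 scale, 2 of 27 injury genes, where 2.04% of all genes were called. Of 12 nephron function genes tested there, the bicarbonate exchanger Slc4a1 rose by 0.95 ± 0.22 and Fxyd4, a regulator of the sodium pump, fell by 0.86 ± 0.17 (edgeR adjusted p = 0.0447 and 0.011). Slc4a1 is a gate marker of intercalated and Fxyd4 of principal cells. Their levels helped to place the barcodes, so neither call is independent of the gate. Spp1 held with each library left out in turn, Cryab was lost without SH045 replicate 2 or 3 or Vehicle replicate 2, Slc4a1 without SH045 replicate 1 or 2 or Vehicle replicate 2 or 3, and Fxyd4 without SH045 replicate 3 or Vehicle replicate 1. With the length trend removed all 4 lost their call, as did Cryab and Slc4a1 at a mitochondrial limit of 20% and Slc4a1 with a common UMI minimum. None of the 32 injury or 19 nephron function genes was called over all tubule cells.

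In the proximal tubule, thick ascending limb, distal convoluted tubule, connecting tubule and cells without a segment, neither list had a called gene. Of the injury genes with the smallest p in each class, Lgals3, a galectin, had a log2 fold of -0.87 ± 0.21, the cytokine gene Il34 of -0.76 ± 0.19 and the heme oxygenase gene Hmox1 of -0.56 ± 0.18 in the proximal tubule (edgeR adjusted p = 0.224, 0.232 and 0.289). Anxa1, which encodes an annexin, was at 33.5, 39.1 and 21.4 CPM with SH045 and 56.9, 78.9 and 106 CPM with Vehicle in the connecting tubule (-1.36 ± 0.32, edgeR adjusted p = 0.158). C3, the central complement component, was at 1445, 1466 and 1765 CPM with SH045 and 194.5, 526 and 877 CPM with Vehicle in proximal tubule cells (log2 fold 1.48 ± 0.46, edgeR adjusted p = 0.306). Its groups do not overlap, as for 20.3% of genes there. In cells without a segment C3 was at 669, 868 and 933 against 292, 282 and 635 CPM (1.03 ± 0.30, edgeR adjusted p = 0.335), and in the connecting tubule, at far lower levels, its log2 fold was -1.15 ± 0.42 (edgeR adjusted p = 0.256). Prom1, a membrane protein of progenitor-like tubule cells, was at 146, 166 and 145 against 61.9, 105 and 70.8 CPM in the thick ascending limb (0.80 ± 0.20, edgeR adjusted p = 0.103).

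For 8 of the markers, the genes whose level followed them most closely over the 66 sums of 11 classes and 6 libraries were found by Pearson correlation of log2(CPM + 1). This is a description across sums that share libraries, and all of them span tubule and immune classes. Havcr1 was nearest to Serpina10, Plat and Tmem252 (0.901, 0.890 and 0.884), Krt20 to Serpina1b, Cpe and Gc (0.915, 0.899 and 0.896) and Vcam1 to Plat, Krt20 and Gc (0.847, 0.840 and 0.831). Cdh6 was nearest to Rdh10, Steap1 and Gpc3 (0.891, 0.882 and 0.875) and Sox9 to Wwtr1, Hspb1 and Fat1 (0.946, 0.940 and 0.939). Values were higher for Lcn2, Dcdc2a and Itgb6. Lcn2 was nearest to Tspan8, Wfdc2 and Clu (0.976, 0.970 and 0.968), Dcdc2a to Krt8, Prom1 and Hoxb8 (0.969, 0.968 and 0.968) and Itgb6 to Prss8, Cfl2 and Kif21a (0.978, 0.971 and 0.971). Krt8 was among the epithelial markers of the gate, so its level also shaped the classes.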

How the data were processed

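The authors deposited raw UMI counts per gene and barcode for 6 obstructed kidneys, from oligo-dT bead libraries per the labels' protocols. The build was mm10, per the submitters' processing notes. The aligner, counter, annotation and cell calling are not given in the sources used here. Libraries held 21186872 to 32256602 UMIs, and values after ± are edgeR standard errors or SDs over libraries. Nothing in the labels pairs the mice. The edgeR p-values of SH045 against Vehicle measure the spread between the 3 libraries of a group. Those that compare classes, or the SH045 effect between classes, measure the spread left between sums per library and class with the library as a block.

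Barcodes were kept with at least 200 genes and at most 50% mitochondrially encoded UMIs. A barcode joined a class with at least 2 of its markers, and the scoring rule was settled after the data had been seen, as was the alternative that keeps mixed barcodes. Doublets were not removed: Scrublet called 32 barcodes, too few for the caller to have worked, and the top 5% of its scores were left out only as an alternative. Counts were summed per library and class and tested with edgeR 4.0.16 (R 4.3.3, TMM, quasi-likelihood, Benjamini-Hochberg limit 0.05) over all genes passing the filter on low counts, in classes with at least 30 barcodes in every library. Alternatives were DESeq2 1.42.0, its size factors, no filter, a replicate block, a length trend, a mitochondrial limit of 20%, other gates, a common UMI minimum and leaving out each library. Detection used cells thinned to 2000 UMIs and an exact permutation test. The test was checked on simulated counts.

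The members and gene lists were chosen with earlier results of these data known. Genes named from the other lists were the 4 with the smallest p per list and class in the tubule classes, with exceptions named in the text. The genes nearest to Clu in level are not reported here.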

Additional observations from a re-analysis of the deposited data

Results flagged for a closer look

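The response of Dcdc2a to SH045 differed between tubule classes by a test of that difference. The SH045 effect in principal cells stood at -0.85 ± 0.14 (SE) on the log2 scale from the mean effect in the other 6 tubule classes (edgeR adjusted p = 0.00275 over 11259 genes). The contrast ran from -0.92 to -0.72 when each library was left out in turn, and it was not called without SH045 replicate 3 (adjusted p = 0.0912) or Vehicle replicate 3 (adjusted p = 0.0727). The Dcdc2a level was lower in all 3 SH045 than in all 3 Vehicle libraries of principal cells, where the groups do not overlap for 25.7% of all genes.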

How the results depend on the processing

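Over all kept barcodes 713 genes were called, 1322 with no filter, 1968 with DESeq2 and 119 to 597 with 1 library left out. Over all tubule cells 0 genes were called, 681 with no filter, 304 with DESeq2, 5 with classes from Leiden clusters and 0 to 51 with 1 library left out. The 6 member-by-class calls became 2 with the length trend removed, 2 with a common UMI minimum and 1 to 7 with 1 library left out. In principal cells 503 called genes became 278 with a replicate block, 281 with DESeq2 and 219 to 476 with 1 library left out. In intercalated cells 204 became 104 with a replicate block, 105 with the length trend removed, 93 with a mitochondrial limit of 20%, 128 with 1 more marker in the gate, 109 with a common UMI minimum and 35 to 385 with 1 library left out. In macrophages 1618 became 841 with the length trend removed, 80 with a common UMI minimum and 355 to 2151 with 1 library left out. No cause of these shifts was tested, beyond the smaller number of samples when a library is left out.

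Between tubule classes, the called log2 fold of Clu in intercalated cells turned from -0.39 to 0.0684 with 1 more marker in the gate. Turned log2 folds of SH045 over Vehicle were never called. In the proximal tubule that of Vcam1 was -0.0207 with the length trend removed. In tubule cells without a segment Vcam1 turned to -0.40 with 1 more marker. There Dcdc2a turned to -0.0046 with no filter and -0.23 with the length trend removed. Itgb6 turned there to -0.0987 with the length trend removed and -0.16 with 1 more marker. With 1 library left out the ranges that crossed 0 were, over all tubule cells, -0.37 to 0.0955 for Vcam1, -0.23 to 0.0185 for Dcdc2a and -0.12 to 0.15 for Clu. In the proximal tubule they were -0.36 to 0.49 for Vcam1 and -0.44 to 0.0149 for Dcdc2a. In cells without a segment they were -0.12 to 0.45 for Vcam1, -0.14 to 0.25 for Itgb6 and -0.49 to 0.13 for Clu, and in principal cells -0.40 to 0.23 for Sox9. Of 1078 values under an alternative, 937 counted as the same. Tested folds had to keep direction and side of the limit, and counts to stay within 1.5 times. Shares of cells had to keep direction and move by less than the larger SD of the groups. Co-detection ratios had to stay on the same side of 1 and move by less than a set part of their range over libraries.

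Replicate numbers were shared between the groups, but same-numbered libraries correlated by 0.109, 0.0495 and 0.108 in tubule deviations, so the numbers were not taken to pair mice. With a replicate block Lcn2 was not called in principal or intercalated cells, and the other 4 member-by-class calls were kept. Over all tubule cells each SH045 library correlated best with its own number.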
